A study of Mus musculus with 2 samples.

Results

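The genes for the chains of collagen were examined in mouse sarcoma cells after silencing of the circular RNA circCsnk1g3. They were chosen by symbol, as every row of the count table named Col, a number, a and a number, which gave 44 genes of the 25509 in the table. They were divided into 11 fibrillar, 6 basement membrane and 27 other collagens. The cells of both groups were C57BL/6 mesenchymal stem cells that lacked p53 and overexpressed Ccne1, which had grown as subcutaneous tumors, then as foci in the lungs of second recipients, and were recovered from those foci. One group was then transduced with a lentiviral hairpin against circCsnk1g3 (shcircCsnk1g3) and the other with a control hairpin (shCTR in the sample labels, shSCR in the study's text), and poly(A) RNA was sequenced from 1 library of each. The mesenchymal cells had first been sorted from bone as Sca1+ PDGFRα+ cells without blood or endothelial markers. The Ccne1 transgene came from a retrovirus, and loss of p53 and gain of Ccne1 were shared by both groups, so that neither library stands for cells without them.

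A collagen molecule is a triple helix of chains in which glycine recurs at a fixed spacing, a repeat written Gly-X-Y. The chains are hydroxylated and folded in the endoplasmic reticulum, secreted, trimmed at their ends and crosslinked outside the cell. Fibrillar collagens (types I, II, III, V, XI, XXIV and XXVII) assemble into the fibrils that give connective tissue its tensile strength, and type IV collagens form the network of basement membranes. The other types decorate fibrils, form beaded filaments, anchor epithelia or span the cell membrane. Mesenchymal cells and the sarcomas that arise from them are known for abundant fibrillar collagen.

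Total counts were 38792143 for shcircCsnk1g3 and 42709996 for shCTR. With 1 library per group there was no replicate check and no test, and every difference below compares these 2 libraries rather than the conditions. Levels within a gene are given as counts and as CPM, counts relative to the TMM-scaled size of the library, and differences as log2 fold changes of shcircCsnk1g3 over shCTR. The range after a log2 fold change is its 95% exact (Clopper-Pearson) interval, which covers counting error only. A gene was compared if either library gave it 10 counts or more, which left 12941 genes with a median log2 fold change of 0.00. Circular RNA carries no poly(A) tail, and these poly(A) libraries give no measure of how far circCsnk1g3 was depleted. In these bulk libraries fewer cells making a transcript and less transcript per cell cannot be told apart.

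Most markers of the labelled cell type were present. Of 10 mesenchymal markers, 9 had enough counts to be compared and Thy1 had at most 1 count. Eng, among the 9, was low, with 94 counts in shcircCsnk1g3 and 146 in shCTR. Vim had 225330 counts in shcircCsnk1g3 and 282350 in shCTR, S100a4 64187 and 76123, and Prrx1 11414 and 13181, and all 9 had a log2 fold change below 0, with a median of -0.22 and Ly6a lowest at -0.69. Markers of other cells of the lung and of blood were near 0. Those of leukocytes summed to 90 counts in shcircCsnk1g3 and 163 in shCTR, of which Cd68 gave 87 and 155, with Ptprc at 1 and 0. Those of endothelium summed to 19 and 29, and those of lung epithelium to 1 and 6, with Sftpc and Epcam at 0. Markers of other mesenchymal fates were mixed. Acan, a cartilage proteoglycan, had 372 counts in shcircCsnk1g3 and 2331 in shCTR, while Sox9, the cartilage transcription factor, had 2256 and 2535 and Hapln1, a link protein of the same matrix, 117 and 133. In the osteoblast list Runx2, its early transcription factor, had 3840 and 3560 counts and Phex 336 and 249, whereas Sp7, a later transcription factor, had 2 and 25. In the smooth muscle list Acta2 had 1227 and 1174, Tagln 100 and 270, Cnn1 37 and 173, and Myh11 4 and 0. Neither list thus moved one way. The part of these cell-state markers in the collagen values was not tested.

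Of the 44 collagen chain genes, 27 had enough counts to be compared, and 20 of those reached a summed count of 200 over both libraries. The other 17 had at most 8 counts in either library, and 6 of them (Col19a1, Col9a1, Col9a2, Col26a1, Col13a1 and Col6a5) were at 0 in both, which allows up to 0.0765 CPM in shcircCsnk1g3 and 0.0710 CPM in shCTR from 3 counts. The genes at or near 0 included chains typical of cartilage, such as the 3 chains of type IX and Col10a1 of hypertrophic cartilage with 3 counts in shcircCsnk1g3 and 2 in shCTR. Also among them was Col15a1, a basement-zone collagen, with 8 and 4 counts. The fibrillar class had 1 such gene (Col11a2), the basement membrane class 1 (Col4a3) and the other collagens 15.

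Collagen transcripts were carried by few genes. Together the 44 genes held 334901 counts in shcircCsnk1g3 and 329882 in shCTR, or 0.863% and 0.772% of each library. Col1a2, Col3a1 and Col6a3 alone made up 56.5% of these counts in shcircCsnk1g3 and 53.4% in shCTR, and the 10 genes highest per length 88.9% and 88.8%. The fibrillar class held 54.1% and 50.5% of the collagen counts, the basement membrane class 17.2% and 17.4%, and the other collagens 28.8% and 32.1%. The fibrillar share was therefore larger in the shcircCsnk1g3 library and the share of the other collagens smaller.

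Between genes, levels were compared only per length, as counts divided by the length of the transcript with the longest coding sequence and scaled to the same sum in each library. On this scale Col1a2 was highest, at 805 in shcircCsnk1g3 and 665 in shCTR. Col3a1 followed at 590 and 445, Col6a3 at 280 and 269, and Col4a1 at 232 and 219. Below these 4 genes, Col4a2 stood at 198 and 194, Col6a1 at 160 and 189, and Col1a1 at 127 and 132. Col6a2 (123 and 99.9), Col5a2 (120 and 96.0) and Col8a1 (91.4 and 97.1) completed the first 10. The most abundant collagen transcripts thus came from types I, III, IV, V, VI and VIII. Neighbours in this order often lay close together, and the order of Col6a1, Col1a1, Col6a2 and Col5a2 rests on the lengths taken for their transcripts as well as on the counts. With union exon lengths Col5a1 (99.8 and 96.6) entered the first 10 and Col6a2 (87.8 and 71.2) left it.

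**Figure D1:**
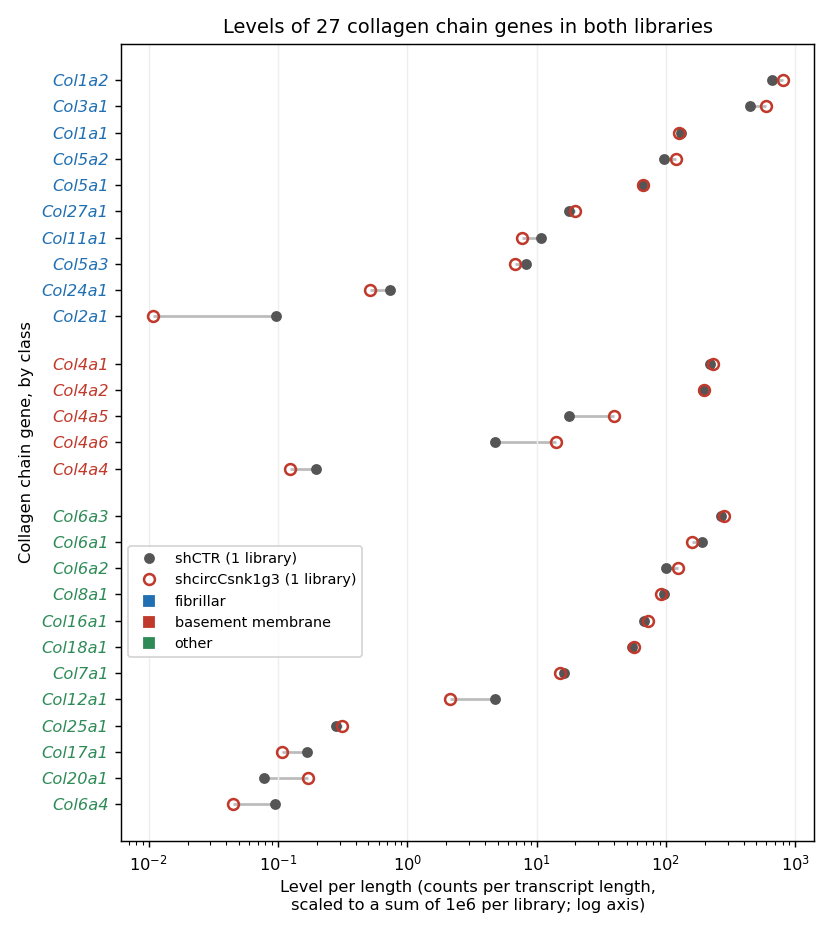
Level per length (log axis, counts divided by transcript length and scaled to a common sum) of the 27 collagen chain genes with enough counts, in shCTR (filled) and shcircCsnk1g3 (open), ordered within each class by the mean of both. Levels ran over several orders of magnitude from Col1a2 (805 and 665) downwards, and the libraries stood close together for most genes but apart for Col4a5, Col4a6 and Col12a1 and, with few counts, for Col2a1, Col20a1 and Col6a4. Each point is 1 library and has no error bar.

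Collagen chain genes did not move one way as a group. Of the 27 genes compared, 14 had a log2 fold change above 0 and 13 below, with a median of 0.01 against 0.00 over all 12941 genes. The counting interval lay above 0 for 8 of 27 genes (29.6%), where it did so for 26.9% of all genes, and below 0 for 9 (33.3%), against 28.2% of all genes. These shares were near the background, so they say nothing particular about collagens. A difference of at least 1.5-fold upwards was seen for 3 genes (Col4a5, Col4a6 and Col20a1, 11.1% of 27), against 5.39% of all genes, and downwards for 5 (Col12a1, Col2a1, Col4a4, Col6a4 and Col17a1, 18.5%), against 6.31%. Of these 8, 5 had a summed count of 63 or less. Col2a1, Col6a4 and Col20a1 reached the 10 counts needed only in the library where they were higher. For such genes the filter itself favours a large fold, so they were not read as differences.

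Of the 20 deeper genes, those whose counts summed to 200 or more, 14 lay within 0.3 of 0 on the log2 scale. Col4a5 and Col4a6 were at least 1.5-fold higher (10% of 20), against 1.99% of the 10662 genes of that depth, and Col12a1 was at least 1.5-fold lower (5%), against 3.14%. All 3 were also past 2-fold, which 0.563% of these genes passed upwards and 0.741% downwards. By log2 fold change Col4a6 was 24th and Col4a5 50th from the top of the 10662 genes, and Col12a1 was 54th from the bottom. For comparison, the central 90% of these genes lay between -0.46 and 0.40.

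**Figure D2:**
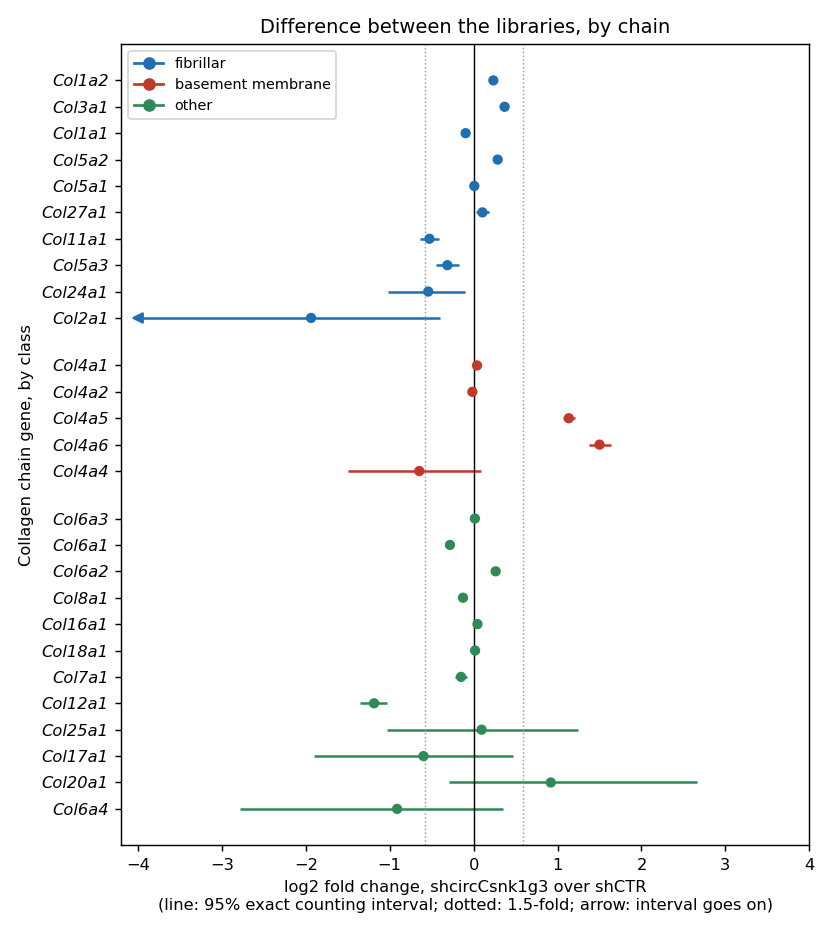
Log2 fold change of shcircCsnk1g3 over shCTR for the 27 collagen chain genes compared, by class, with the 95% exact counting interval as a line. Dotted lines mark 1.5-fold, and the interval of Col2a1 goes on beyond the axis to -8.65. Col4a5 and Col4a6 lie to the right of the dotted line and Col12a1 to the left with narrow intervals, whereas the intervals of Col4a4, Col6a4, Col17a1 and Col20a1 reach past 0.

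Of the type IV chains of the basement membrane, the most abundant pair, Col4a1 and Col4a2, was near 0 and the next, Col4a5 and Col4a6, was higher in shcircCsnk1g3. Col4a1 and Col4a2 encode the chains of the network found in nearly all basement membranes. Col4a1 had 27885 counts (711 CPM) in shcircCsnk1g3 and 29215 (691 CPM) in shCTR, a log2 fold change of 0.04 (0.02 to 0.06). Col4a2 had 23177 counts (591 CPM) and 25239 (597 CPM), a log2 fold change of -0.02 (-0.04 to 0.01). Both were therefore at nearly the same level in the 2 libraries. They give most of the summed counts of the basement membrane class, 57530 in shcircCsnk1g3 and 57474 in shCTR, or 1467 and 1360 CPM. The log2 ratio of these sums was 0.11 (0.09 to 0.13). Most of that difference came from Col4a5 (121 and 55.1 CPM) and Col4a6 (43.2 and 15.2 CPM) rather than from Col4a1 and Col4a2.

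Col4a5 and Col4a6, on the X chromosome, encode the chains of a network that is more restricted among tissues, such as smooth muscle and skin. Col4a5 had 4747 counts (121 CPM) in shcircCsnk1g3 and 2329 (55.1 CPM) in shCTR, a log2 fold change of 1.13 (1.06 to 1.21), or 2.19-fold higher. Col4a6 had 1695 counts (43.2 CPM) and 644 (15.2 CPM), a log2 fold change of 1.5 (1.37 to 1.64), or 2.83-fold higher. These were the largest upward differences among the collagens with at least 200 summed counts. Their intervals did not overlap, and the ratio of Col4a5 to Col4a6 was lower in shcircCsnk1g3 by 0.37 on the log2 scale (-0.52 to -0.22 as a log2 ratio of ratios). Per length, Col4a5 was 2.85 times the level of Col4a6 in shcircCsnk1g3 and 3.68 times in shCTR. Even in the shcircCsnk1g3 library both stayed well under Col4a1 per length, at 39.9 for Col4a5 and 14.0 for Col4a6 against 232.

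The remaining type IV chains, Col4a3 and Col4a4, are among the chains of the kidney glomerulus and were scarce in these cells. Col4a3 had 3 counts in shcircCsnk1g3 and 7 in shCTR. Col4a4 had 23 and 40, a log2 fold change of -0.65 (-1.50 to 0.08). No difference was detectable at this depth for either.

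The 6 type IV genes lie as 3 head-to-head pairs on opposite strands (GRCm38, GENCODE M21). The starts of Col4a1 and Col4a2 on chromosome 8 were 21 bp apart, those of Col4a3 and Col4a4 on chromosome 1 were 72 bp apart, and those of Col4a5 and Col4a6 were 1309 bp apart. Col4a6 (ENSMUSG00000031273) spans X:141165403-141474076 on the minus strand and Col4a5 (ENSMUSG00000031274) spans X:141475385-141689234 on the plus strand. The stretches just before their annotated starts are shown because this is the type IV pair in which both genes were at least 1.5-fold higher. They come from the RefSeq promoter windows (GRCm38.p6), 5′ to 3′ on each gene's own strand, cut to end before the first annotated start. Capitals mark a CCAAT box in Col4a5 and, in Col4a6, letters like those of an interferon-stimulated response element, GAAANNGAA.
Col4a5, X:141475169-141475369, plus strand: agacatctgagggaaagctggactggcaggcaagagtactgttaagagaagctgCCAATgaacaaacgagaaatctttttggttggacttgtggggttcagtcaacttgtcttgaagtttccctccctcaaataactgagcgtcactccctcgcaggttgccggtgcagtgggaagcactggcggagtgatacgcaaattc
Col4a6, X:141474096-141474326, minus strand: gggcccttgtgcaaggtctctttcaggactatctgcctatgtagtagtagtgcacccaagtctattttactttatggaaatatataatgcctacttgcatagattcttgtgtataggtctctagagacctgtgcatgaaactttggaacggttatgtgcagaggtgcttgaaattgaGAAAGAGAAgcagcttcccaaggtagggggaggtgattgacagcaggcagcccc

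Of the 44 collagen genes, 35 matched RefSeq promoter windows of 300 bases, 38 windows in all. A collagen gene was counted if any of its windows held the letters, whereas the share over all genes is per window. The shares are therefore not measured quite alike. Searched on both strands, GAAANNGAA was in the windows of 3 of the 35 (Col4a6, Col27a1 and Col6a4) and in 8.55% of the 32817 windows of all genes. Beside Col4a6, Col27a1 had a log2 fold change of 0.10 (0.03 to 0.18), and Col6a4 had too few counts for a direction (6 and 14). CCAAT was in the windows of 13 of the 35 and in 37.4% of all windows, GGGCGG (the GC box) in 22 and in 35.6%, and TATAAA (the TATA box) in 5, among them Col3a1, and in 13.6%. The windows of Col4a5 and Col4a6 both held GGGCGG outside the stretches shown. A match is a description of letters and not a binding site. Col12a1 was not matched.

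The genes around Col4a5 and Col4a6 were compared to see whether the difference extended along the chromosome. Of the 12 nearest genes with enough counts, 6 on each side and up to 1829 kb away, the median log2 fold change was 0.03 and the range -1.83 to 1.92. Atg4a, 1.13 kb from the end of Col4a6, had 442 counts in shcircCsnk1g3 and 505 in shCTR (-0.08), and Psmd10 had 1208 and 1303 (-0.00). The neighbours on this side were not alike, since the next gene, Mid2 at 398 kb, had 335 and 199 (0.85, 0.60 to 1.12) and was past 1.5-fold in the direction of the pair. Tsc22d3, at 565 kb, had 1820 and 1455 (0.43, 0.33 to 0.53), and Frmpd3, at 730 kb, had 23 and 5 (1.92, 0.88 to 4.06). On the other side, beyond Col4a5, the nearest gene was Nxt2 at 538 kb, with 218 and 340 (-0.53, -0.79 to -0.28). The genes around the pair thus lay on both sides of 0, with Atg4a and Psmd10, the closest, near it. Over the X chromosome, 6 of 342 genes with at least 200 summed counts were at least 1.5-fold higher, the pair included, and their median was 0.00.

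**Figure D3:**
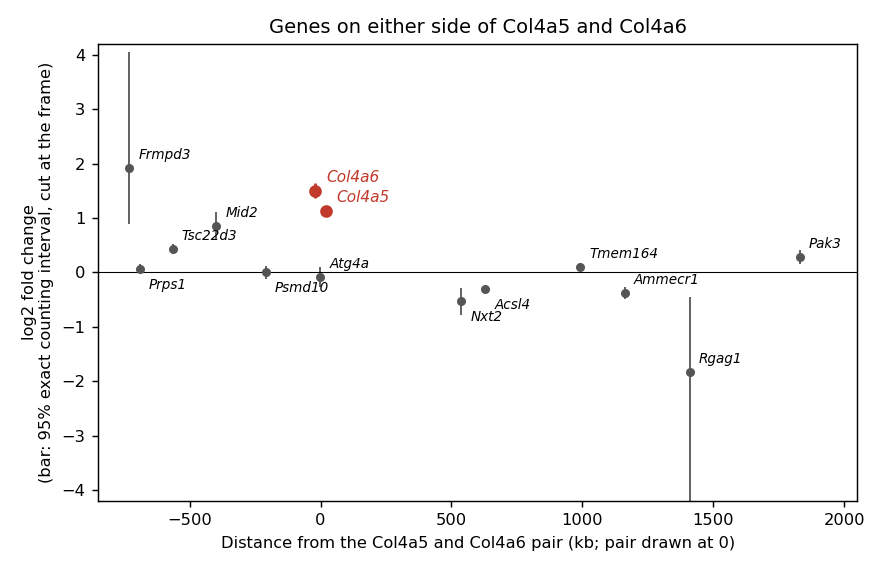
Log2 fold change of shcircCsnk1g3 over shCTR for Col4a5 and Col4a6 (red) and the 12 nearest genes compared (grey), against distance from the pair in kb, with 95% exact counting intervals. Col4a6 (1.5) and Col4a5 (1.13) stand above Atg4a (-0.08), Psmd10 (-0.00), Mid2 (0.85) and Nxt2 (-0.53), and the points with long bars, Frmpd3 and Rgag1, have few counts.

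Fibrillar collagens as a class had a median log2 fold change of -0.04 over 10 genes, 5 above 0 and 5 below, and 0.06 over the 8 with at least 200 summed counts. Their summed counts were 166567 in shCTR and 181056 in shcircCsnk1g3, a log2 ratio of 0.23. The sum and the median differ in sign, and Col1a2 and Col3a1 give most of the summed counts. In the main fibrillar types, Col3a1, the single chain of type III collagen of distensible tissues, had 59725 counts (1523 CPM) in shcircCsnk1g3 and 49831 (1179 CPM) in shCTR, a log2 fold change of 0.37 (0.35 to 0.39). Col1a2, the alpha2 chain of type I collagen, had 78250 counts (1995 CPM) and 71642 (1696 CPM), a log2 fold change of 0.23 (0.22 to 0.25). Col1a1, the alpha1 chain of the same molecule, had 13678 counts (349 CPM) and 15747 (373 CPM), a log2 fold change of -0.10 (-0.13 to -0.06). The chains of type I collagen thus lay on opposite sides of 0, each by less than 1.5-fold.

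Type I collagen is usually a trimer with more alpha1 than alpha2 chains, yet in both libraries Col1a2 transcripts outnumbered those of Col1a1. Per length, Col1a1 stood at 0.158 of Col1a2 in shcircCsnk1g3 and 0.198 in shCTR. With the union of all annotated exons as length, the ratios were 0.331 and 0.416. The order of these genes was the same in both libraries and with both lengths, and the ratio was lower in shcircCsnk1g3 by 0.33 on the log2 scale (-0.37 to -0.29 as a log2 ratio of ratios).

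Types V and XI regulate the diameter of fibrils. Col5a2 had 14503 counts (370 CPM) in shcircCsnk1g3 and 12810 (303 CPM) in shCTR, a log2 fold change of 0.29 (0.25 to 0.32). Its usual partner Col5a1 had 10259 and 10992 counts, a log2 fold change of 0.01 (-0.03 to 0.05). Their ratio, Col5a1 to Col5a2, was 0.557 per length in shcircCsnk1g3 and 0.676 in shCTR. The scarcer type V chain Col5a3 had 757 and 1014 counts (-0.31, -0.45 to -0.18). Col11a1 had 1071 counts (27.3 CPM) and 1663 (39.4 CPM), a log2 fold change of -0.53 (-0.64 to -0.42), the lowest of the fibrillar genes with at least 200 summed counts. Col3a1 and Col5a2, which lie 191744 bp apart, start to start, on opposite strands of chromosome 1, were thus both higher in shcircCsnk1g3 and differed from each other by 0.08 (0.04 to 0.12).

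Of the other fibrillar genes, Col27a1 had 2742 counts in shcircCsnk1g3 and 2747 in shCTR (0.10, 0.03 to 0.18), and Col24a1 had 67 and 106 (-0.54, -1.02 to -0.10). Col2a1, the main collagen of cartilage, had 1 count and 10, with a ratio whose counting interval ran from -8.65 to -0.40 on the log2 scale. Its count in shcircCsnk1g3 was under the floor of 3 counts, and it was compared only through its 10 counts in shCTR. In the chondrocyte list Acan was lower in the same library (372 counts against 2331), whereas Sox9 (-0.06, -0.14 to 0.02) and Hapln1 (-0.08, -0.45 to 0.29) were near 0, and the part of these markers in the Col2a1 value was not tested. The transcripts of Col24a1 and Col27a1 also stood apart in sequence, since the longest unbroken run of Gly-X-Y triplets in their coding sequence was 216 and 217 triplets, where those of the other fibrillar genes compared ran from 337 in Col5a3 to 344 in Col3a1.

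**Figure D4:**
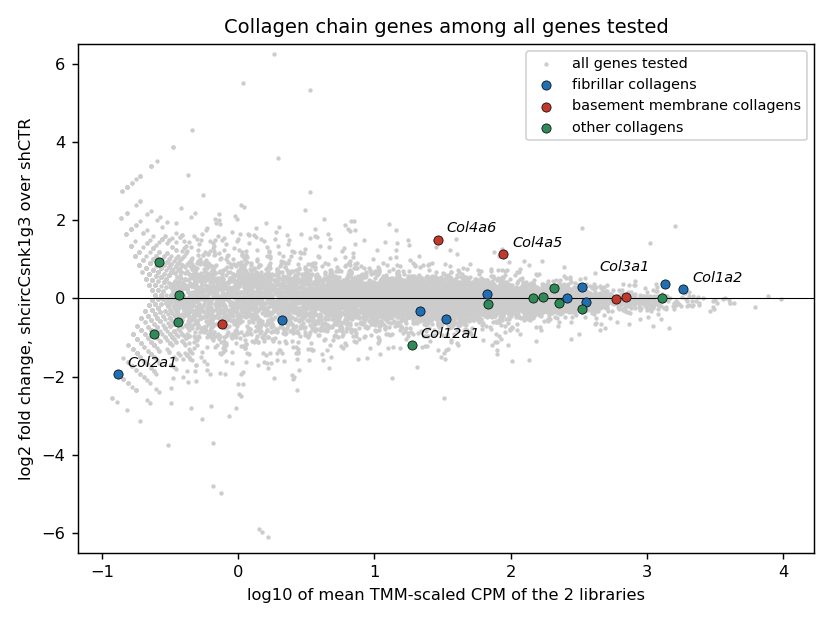
Log2 fold change of shcircCsnk1g3 over shCTR against the log10 of mean CPM for the 12941 genes compared (grey), with the 27 collagen chain genes coloured by class. Col4a5 and Col4a6 lie at the upper edge of genes of their abundance and Col12a1 at the lower edge, Col1a2 and Col3a1 are among the most abundant genes slightly above 0, and the spread of all genes widens towards low counts.

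Among the other collagens, 12 of 27 genes had enough counts, with a median log2 fold change of -0.06, 6 above 0 and 6 below, and summed counts of 96315 in shcircCsnk1g3 and 105841 in shCTR (log2 ratio -0.03). Type VI collagen, whose 3 chains form beaded microfilaments around cells, was the most abundant of them. Col6a3 had 51388 counts (1310 CPM) and 54785 (1297 CPM), a log2 fold change of 0.02 (-0.00 to 0.03). Col6a1 had 11914 counts (304 CPM) in shcircCsnk1g3 and 15610 (369 CPM) in shCTR, a log2 fold change of -0.28 (-0.32 to -0.25). Col6a2 had 8846 counts (226 CPM) and 7945 (188 CPM), a log2 fold change of 0.26 (0.22 to 0.31). Chains of the same molecule thus stood near 0, below it and above it, all by less than 1.5-fold. Col6a1 and Col6a2 lie on the minus strand of chromosome 10 with starts 102538 bp apart, and the ratio of Col6a1 to Col6a2 per length was 1.30 in shcircCsnk1g3 and 1.89 in shCTR, a log2 ratio of ratios of -0.54 (-0.60 to -0.49). This was the largest shift between partner chains among the pairs in which both had at least 200 summed counts. With union exon lengths the ratio was 2.56 and 3.73. Col6a4 had 6 and 14 counts (-0.91, -2.78 to 0.36).

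Col12a1, whose product binds along the surface of type I fibrils and belongs to the fibril-associated collagens, had the largest downward difference among the collagens with at least 200 summed counts. It had 449 counts (11.4 CPM) in shcircCsnk1g3 and 1104 (26.1 CPM) in shCTR, a log2 fold change of -1.19 (-1.35 to -1.03), or 2.28-fold lower. The gene (ENSMUSG00000032332) spans 9:79598991-79718831 on the minus strand. Of the 12 nearest genes with enough counts, the log2 fold changes ran from -0.28 to 0.64 with a median of 0.04, so that none was as low as Col12a1. Cox7a2, 36.5 kb away, had 2367 and 2831 counts (-0.15). Col12a1 also has a short collagenous part, with 84 Gly-X-Y triplets in its coding sequence against 353 in Col1a2. Of the other fibril-associated genes, Col16a1 was the only one with at least 200 summed counts, and it had 6851 and 7153 (0.05, -0.00 to 0.09). The rest were too scarce for a difference to be read at this depth. Col20a1 had 14 and 7 counts (0.92, -0.30 to 2.66), Col22a1 1 and 8, Col9a3 5 and 7, and Col14a1 1 and 0.

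Of the genes left in this class, Col8a1, a short-chain network collagen of vessel walls, had 8492 counts (217 CPM) in shcircCsnk1g3 and 9991 (236 CPM) in shCTR (-0.13, -0.17 to -0.09), while its partner chain Col8a2 had 4 and 0. Col18a1, a basement-zone collagen whose cleavage releases endostatin, had 5753 and 6126 counts (0.02, -0.04 to 0.07). It overlaps Slc19a1 on the opposite strand over 8825 bp, and whether counting used strand is not stated. Col7a1, which forms the anchoring fibrils under epithelia, had 2548 and 3047 counts (-0.15, -0.23 to -0.07). Of the transmembrane collagens, Col17a1 of the hemidesmosome had 11 and 19 counts (-0.60, -1.90 to 0.46) and Col25a1 had 15 and 15 (0.09, -1.03 to 1.24). Apart from Col12a1, no gene of this class with at least 200 summed counts was past 1.5-fold.

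Most of the listed enzymes and chaperones that make collagen had log2 fold changes below 0. So had all 9 mesenchymal markers compared, with a median of -0.22, and their part in the values of these genes was not tested. The lists for hydroxylation and glycosylation, folding and secretion, propeptide processing and crosslinking held 41 genes. Of these, 34 were compared, 7 above 0 and 27 below, with a median log2 fold change of -0.18. The counting interval lay above 0 for 7 and below 0 for 24, against 26.9% and 28.2% of all genes. Those shares include genes of lower count, whose intervals are wider, so they are not a background matched for depth. At least 1.5-fold differences were seen for 1 upwards and 2 downwards, all 3 of them with at least 200 summed counts, a depth that 33 of the 34 reached. Over all genes of that depth the shares were 1.99% and 3.14%, and counts of 1 and 2 are too small to set against them. In hydroxylation and glycosylation the median was -0.16 over 14 genes. P4hb, a subunit of prolyl 4-hydroxylase, had 49405 counts in shcircCsnk1g3 and 64003 in shCTR (-0.27). Ppib, a prolyl isomerase, had 8494 and 10929 (-0.26), and Colgalt1, a galactosyltransferase of hydroxylysine, had 11248 and 10841 (0.16).

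For folding and secretion the median was -0.16 over 9 genes. Serpinh1, the collagen chaperone HSP47, had 36069 counts in shcircCsnk1g3 and 36859 in shCTR (0.08), Fkbp10, another chaperone, 10078 and 11750 (-0.11), and Sec24d, a coat component of vesicles that leave the endoplasmic reticulum, 7486 and 8646 (-0.10). Creb3l1, a transcription factor of the secretory pathway that acts on collagen genes, had 536 and 343 (0.75, 0.55 to 0.95) and was the only one of the 34 at least 1.5-fold higher. All 5 propeptide-processing genes compared were below 0, with a median of -0.18. Among them were Pcolce, an enhancer of procollagen cleavage, with 15341 and 18641 counts (-0.17), Bmp1, the protease itself, with 4990 and 6098 (-0.18), and Pcolce2 with 2550 and 3313 (-0.27).

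The crosslinking list held both downward differences of at least 1.5-fold. Loxl2, a lysyl oxidase that acts on type IV collagen among others, had 2306 counts in shcircCsnk1g3 and 5673 in shCTR, a log2 fold change of -1.19 (-1.26 to -1.12). Loxl1, the lysyl oxidase best known for elastin, had 223 and 408 (-0.76, -1.01 to -0.53). Lox, the founding member of the family, had 2342 and 2674 (-0.08), and Pxdn, the peroxidase that makes the sulfilimine bonds of type IV collagen, had 25168 and 25794 (0.07). Crosslinking genes thus differed among themselves, with Loxl2 far from Lox and Pxdn.

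Genes whose products assemble with, bind or cleave collagen lay on both sides of 0. The 11 fibril assembly genes had a median of 0.01, 6 above 0 and 5 below, but the 8 with at least 200 summed counts had a median of -0.15. Sparc had 55659 counts in shcircCsnk1g3 and 57852 in shCTR (0.05), Thbs2 51495 and 42799 (0.37), Fn1, the fibronectin on which collagen fibrils are laid down, 31385 and 41577 (-0.30), and Postn, a matricellular protein, only 59 and 21 (1.51, 0.86 to 2.39). The 7 collagen receptors compared had a median of 0.09, with Itgb1, the common integrin subunit, at 24753 and 33882 counts (-0.35), Ddr2, the receptor kinase for fibrillar collagen, at 19964 and 18962 (0.18), and Mrc2, an endocytic receptor, at 7907 and 9184 (-0.11). The 8 genes of collagen cleavage had a median of -0.04. Of these, Mmp2, a gelatinase, had 21318 and 22811 counts (0.01), Mmp14, a membrane-bound collagenase, 12529 and 14387 (-0.09), and their inhibitor Timp2 16281 and 23371 (-0.41).

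**Figure D5:**
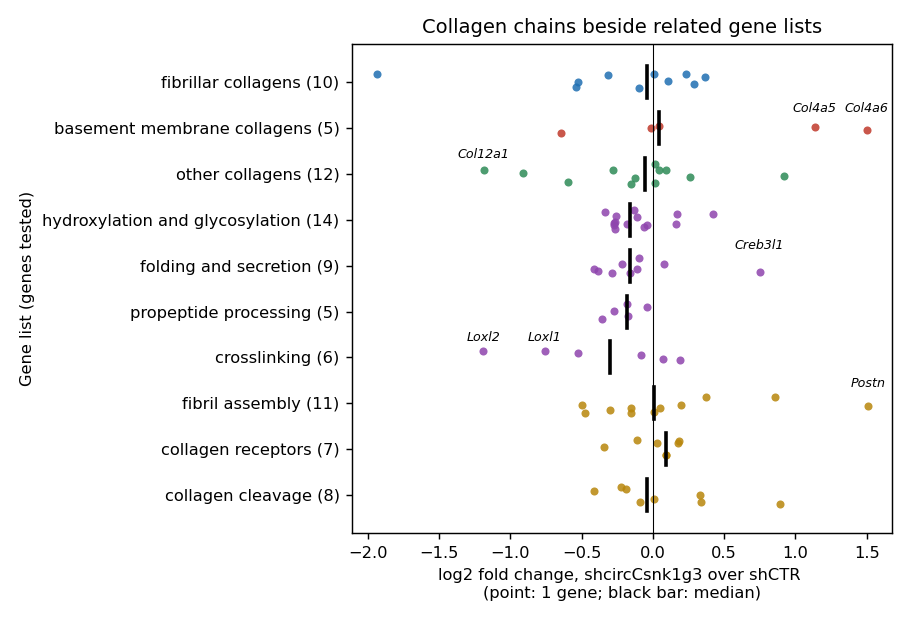
Log2 fold change of shcircCsnk1g3 over shCTR for each gene compared (points) in the 3 collagen classes and in 7 lists of collagen-processing and partner genes, with the median of each list as a black bar and the number of genes in brackets. Medians of the 4 processing lists lie between -0.16 and -0.30, those of the collagen classes between -0.06 and 0.04, and Loxl2, Col12a1, Col4a5, Col4a6, Creb3l1 and Postn stand apart from their lists.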

How the data were processed

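Poly(A) RNA of mouse sarcoma cells was sequenced from 1 shCTR and 1 shcircCsnk1g3 library. The authors aligned reads to GRCm38 with STAR and deposited estimated counts per gene from RSEM as whole numbers. RSEM splits reads shared by several genes. The authors also deposited TMM-scaled CPM for 11624 genes, 22 of them collagens, used here as an alternative. The GENCODE release and strand setting are not given in the sources used here. GENCODE M21 gave positions and lengths, matching 25251 of 25509 identifiers. Spike-in rows (92, all at 0) were left out.

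TMM factors (1.01 for shcircCsnk1g3, 0.989 for shCTR) and log2 fold changes with a prior count of 2 were computed in edgeR 4.0.16 (R 4.3.3) over all genes, and all else in python 3.11.15. No test was possible with 1 library per group. Intervals cover counting error only. Members and lists were chosen with earlier results of these data known. Besides collagens, genes were named if past 1.5-fold with at least 50 summed counts, among the 3 with most counts in a list, or as neighbours of a named locus. Of the leukocyte, endothelium and lung epithelium lists, whose counts were near 0, only sums and some defining markers are given. These markers, Thy1, Eng and Myh11 were named after their values were seen. Alternatives were DESeq2 1.42.0 size factors, total counts, the deposited CPM, prior counts of 0.5 and 10, no filter, minimums of 50 and 200 summed counts, a 2-fold threshold and a correction for GC content and length. On simulated counts for this comparison, 200 of 200 changed genes were recovered within 0.3. Of 12692 unchanged genes, 344 passed 1.5-fold, with 0 of the 10455 that had at least 200 summed counts. The simulated counts held counting error only (Poisson). They therefore cannot show how many deep genes would pass 1.5-fold through variation between libraries.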

Additional observations from a re-analysis of the deposited data

How the results depend on the processing

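No paired analysis was possible because each group has 1 library, and for the same reason no library could be left out. The log2 fold changes of Col4a5 (1.13 to 1.17), Col4a6 (1.49 to 1.53) and Col12a1 (-1.19 to -1.16) held their direction and stayed past 2-fold under every scaling, prior count and correction tried. Of 156 values of single collagen genes under alternatives, 147 stayed within their own counting interval, 9 left it (5 with total counts, 4 with the correction for GC content and length) and 0 of those past 1.5-fold changed sign. Col4a2 changed sign, to 0.02 with total counts, which also moved the median of all genes by 0.03. The median of collagen-processing genes ran from -0.18 to -0.15. Class medians moved with the genes of low count: over genes with 200 or more summed counts they were 0.056 for fibrillar and 0.59 for basement membrane collagens (0.59 also in the deposited CPM table, which holds 4 type IV genes), and without a count filter that of the other collagens was 0.017. The number of collagen genes at least 1.5-fold higher was 3, and was 7 without a filter and 2 in the deposited table, with a prior count of 10, with at least 50 or 200 summed counts and at 2-fold. The number at least 1.5-fold lower was 5, and was 4 with total counts, 1 in the deposited table, 2 with a prior count of 10, 8 without a filter, 2 with at least 50 and 1 with at least 200 summed counts, and 2 at 2-fold. Over all genes the 698 higher and 817 lower became 349 and 523 in the deposited table, 1765 and 1468 without a filter, 405 and 533 with at least 50 and 212 and 335 with at least 200 summed counts, and 275 and 330 at 2-fold. The log2 ratio of summed collagen counts was 0.13, 0.16 with total counts and 0.026 without Col1a2 and Col3a1, a choice made after seeing the data. Another prior count, no filter and the GC correction give no separate value for that sum.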
